A study of Mus musculus with 24 samples.

Results

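Integrins are receptors made of an alpha and a beta chain that tie a cell to the matrix around it, and collagens and laminins are among the matrix proteins they hold. Laminins and type IV collagen form the basement membrane, the thin sheet that in the brain lies around blood vessels and under the meninges and the choroid plexus, while fibril-forming collagens lie mainly in the meninges and vessel walls. In the hippocampus, integrins on neurons and glia are also known to act at synapses. The genes described here are those whose array symbol is that of an integrin alpha or beta chain, the integrin beta-like gene Itgbl1, a collagen chain or a laminin chain. Of 81 such genes, Col8a2, Col9a2 and Col16a1 were left out because they lie close to Foxo6 on the chromosome, which left 78 of the 19938 genes measured: 27 integrin, 41 collagen and 10 laminin genes. The rule goes by gene symbol and position alone, though it was written with earlier results of these data known.

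Hippocampal RNA of male mice, 8 to 9 weeks old and of C57BL/6J-129sv mixed background, was measured on 24 Affymetrix Mouse Gene 1.0 ST arrays, 6 in each of 4 groups. FoxO6 is a forkhead transcription factor. The mutant basal group (FoxO6 -/-, labelled null) and the WT basal group (FoxO6 +/+) held mice kept alone in a cage for at least 3 days. The mutant learning and WT learning groups, of the same 2 genotypes, had been handled daily and put in an empty arena for 10 min 24 h earlier, then explored a pair of identical new objects there for 10 min and were killed 60 min later. The sources used here do not say how the mutant allele was made. The hippocampus was dissected from thick sections, so every cell type of the tissue contributes RNA. Learning and basal mice differed in handling, housing and arena as well as in the objects, and these parts of the difference cannot be told apart. The labels do not say whether learning and basal arrays were processed together. A processing difference between the states therefore cannot be told apart from the rest either. The labels call the arrays biological replicates without naming animals, and the p-values therefore measure only how these samples vary, which may be in part technical.

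All values are deposited log2 values made with RMA, which corrects background, equalises the arrays and sums up the probes of a transcript. A difference of 1 on this scale is a doubling of signal. Foxo6 itself was lower in mutant arrays, by −0.73 in the basal state (adjusted p = 0.000128) and by −0.63 after learning (adjusted p = 0.000833), with no overlap between the genotypes in either state. The sources used here do not show whether its probes cover the altered stretch. The mean of 11 markers of hippocampal neurons was 9.71 to 9.84 in the basal arrays and 9.48 to 9.68 in the learning arrays. Arrays of a group correlated at 0.991 to 0.997 across genes. Of the 78 genes, 48 had a mean above the median of all deposited values (6.25) and 30 a mean below it, where small differences are hardest to see. Their means ran from 4.69 to 9.68, which does not rank the genes by amount of RNA, since probes differ in brightness. Markers of choroid plexus, a tissue beside the hippocampus, set WT basal arrays apart: Ttr, which encodes the carrier transthyretin, was 11.7 to 12.1 in WT basal arrays 1 to 3 and 8.80 to 9.64 in arrays 4 to 6. Calls that ended when WT basal arrays 4 to 6 were left out are named with the results.

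Genes were compared with limma, a linear model fitted to all 19938 genes and 24 arrays, and a gene was called where its p, after Benjamini-Hochberg adjustment over the 19938 genes, was under 0.05. Of the 78 genes, Itga4 and Itgbl1 were called between genotypes, both higher in the mutant. Itga4 is the alpha4 chain, which pairs with beta1 or beta7 and binds the adhesion molecules Vcam1 and Madcam1 and the matrix protein fibronectin. Itgbl1 is a secreted protein with repeats like those of an integrin beta chain but no part that crosses the membrane. The sequences just before their start sites are shown because these genes carry the genotype difference. RefSeq (GRCm38.p6) places Itga4 at chr2:79255426-79333114 and Itgbl1 at chr14:123659937-123978865. Capitals mark the GC box GGGCGG, a motif common in promoters, read on both strands, which starts at position −114 from the start site of Itga4 and, on the other strand, at −26 from the Itgbl1 start site listed in the promoter table. For Itga4 the 250 bases chr2:79255176-79255425, on the + strand, are given. The Itgbl1 start site lies inside the annotated gene, so 30 bases around the motif are given, chr14:123660102-123660131, on the + strand.
Itga4: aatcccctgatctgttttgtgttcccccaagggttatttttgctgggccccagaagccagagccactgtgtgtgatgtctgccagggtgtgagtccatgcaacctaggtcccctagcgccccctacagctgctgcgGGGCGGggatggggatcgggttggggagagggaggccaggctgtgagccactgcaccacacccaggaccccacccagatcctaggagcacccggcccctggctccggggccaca
Itgbl1: ggcacccgcaccCCGCCCaaagcggatcca

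Promoter windows of 300 bases, 250 before and 50 after a start site, were matched for 56 of the 78 genes by gene identifier, with 62 windows in all. The GC box was found in 33 of these windows (53.2%), in 31 genes, and in 35.7% of all 32851 windows. The forkhead motif GTAAACA, which FoxO and other forkhead factors can bind, was found in 1 of the 62 windows (1.61%), that of Col6a1, and in 3.65% of all windows. Neither Itga4 nor Itgbl1 had GTAAACA in its window, on either strand. A match is a string of letters and not a shown binding site. The bases before Col6a1, which encodes a chain of the microfibril-forming type VI collagen, are given with the forkhead motif in capitals, at position −211 from the start site, chr10:76726045-76726294, on the − strand.
Col6a1: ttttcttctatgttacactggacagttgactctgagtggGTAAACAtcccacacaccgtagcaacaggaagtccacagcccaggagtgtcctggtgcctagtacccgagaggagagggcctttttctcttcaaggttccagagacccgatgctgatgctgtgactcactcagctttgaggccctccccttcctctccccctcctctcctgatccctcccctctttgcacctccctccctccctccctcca

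In the basal state, Itga4 had a lowest, median and highest value of 8.20, 8.29 and 8.40 in the 6 mutant arrays, against 7.72, 7.94 and 8.10 in the 6 WT arrays. Every mutant array lay above every WT array. The difference was 0.37 (SE 0.0734, 95% interval 0.22 to 0.52, 1.29-fold, adjusted p = 0.0295 by limma). The exact two-sided permutation test over 924 assignments gave p = 0.00216, not adjusted. That is the smallest p it can give, and any gene without overlap gets it. The test was run only for Itga4 and Itgbl1, on the same arrays that gave the calls. Itgbl1 had 7.14, 7.34 and 7.43 in mutant arrays, against 6.85, 6.94 and 7.24 in WT arrays. The ranges overlapped through WT basal array 6 alone, at 7.24, and the other WT basal arrays lay at 6.85 to 7.06. The difference was 0.33 (SE 0.0675, 95% interval 0.19 to 0.47, 1.26-fold, adjusted p = 0.0382 by limma). The exact permutation test gave p = 0.00649, not adjusted. These were 2 genes called higher and 0 called lower of 78, where of all genes 0.0451% were higher and 0.0552% lower (0.100% in either direction). Another 5 of the 78 had an unadjusted p under 0.05 without being called, which makes 7 in all, and 4.50% of all genes had one. The arrays of the genotypes did not overlap for 1 of the 78 genes, Itga4, and for 0.431% of all genes.

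The calls in the basal state were near the threshold. Itga4 was called in 4 of 12 fits that left out 1 array (adjusted p up to 0.108) and Itgbl1 in 2 of 12 (up to 0.168). The count of called genes fell to 0 without mutant basal array 2, 4 or 6 or WT basal array 2, 3, 4 or 5, and stayed at 2 without WT basal array 6. The size of the differences moved less: 0.33 to 0.41 for Itga4 and 0.30 to 0.38 for Itgbl1 over the same fits. The mean of 16 choroid plexus markers was 6.27 to 6.69 in mutant basal arrays and 5.81 to 6.67 in WT basal arrays. With that mean as a covariate the differences were 0.36 for Itga4 (adjusted p = 0.0854) and 0.34 for Itgbl1 (adjusted p = 0.0773). Without WT basal arrays 4 to 6 they were 0.36 (adjusted p = 0.151) and 0.38 (adjusted p = 0.0632).

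After learning, Itga4 had 8.20, 8.41 and 8.56 in mutant arrays, against 7.87, 8.11 and 8.36 in WT arrays. The ranges overlapped between 8.20 and 8.36. The difference was 0.29 (SE 0.0734, 95% interval 0.14 to 0.44) and was not called (adjusted p = 0.222 by limma; exact permutation p = 0.00866, not adjusted). Itgbl1 had 7.19, 7.38 and 7.48 in mutant arrays, against 7.14, 7.23 and 7.34 in WT arrays. The ranges shared the stretch from 7.19 to 7.34. Its difference was 0.14 (95% interval 0.0038 to 0.28, adjusted p = 0.671; exact permutation p = 0.0303, not adjusted). Of the 78 genes, limma called 0 after learning, where it called 0.0150% of all genes higher and 0.0602% lower (0.0752% in either direction). At an unadjusted p under 0.05 there were 6, among them Itga4 and Itgbl1, and 7.33% of all genes reached it. After Itga4, the smallest p-values were those of Itga1, a collagen-binding chain (−0.21, adjusted p = 0.578), and Lamb1, the laminin beta1 chain (−0.15, adjusted p = 0.596). The genotypes did not overlap for 0 of the 78 genes and for 0.371% of all genes.

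**Figure D1:**
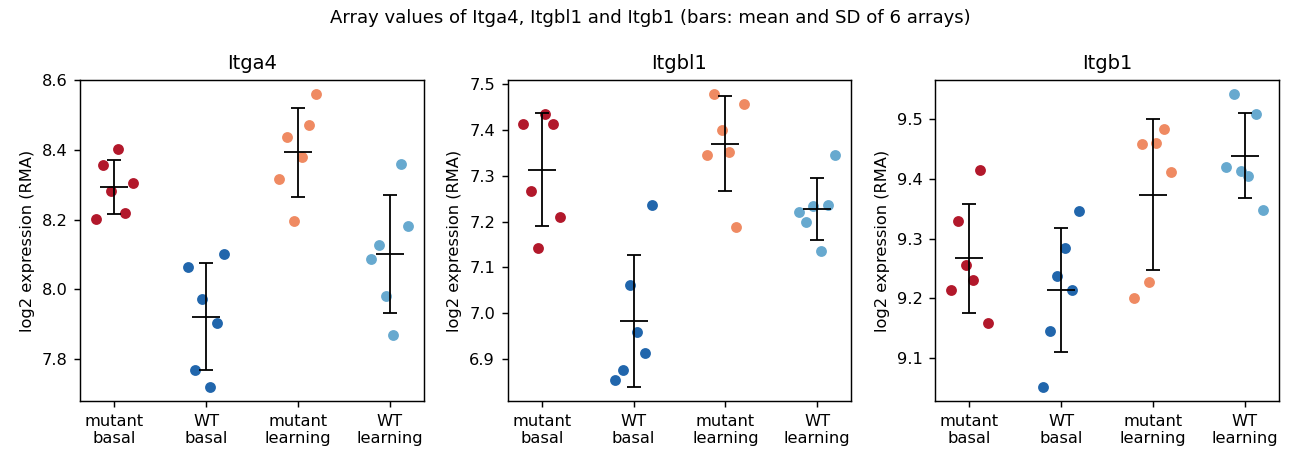
Deposited log2 values of Itga4, Itgbl1 and Itgb1 in each of the 24 arrays (points), by group, with the mean and SD of 6 arrays. For Itga4 the mutant basal arrays (8.20 to 8.40) all lie above the WT basal arrays (7.72 to 8.10), whereas the Itgb1 values of the genotypes overlap in both states.

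Averaged over both states, the difference was 0.33 for Itga4 (SE 0.0519, 95% interval 0.23 to 0.44, 1.26-fold, adjusted p = 0.000818) and 0.24 for Itgbl1 (SE 0.0477, 95% interval 0.14 to 0.33, 1.18-fold, adjusted p = 0.0156). Both calls held in all 24 fits that left out 1 array and in 9 other settings. They were the 2 genes called of 78, both higher, where of all genes 0.176% were higher and 0.216% lower (0.391% in either direction). A further 4 had an unadjusted p under 0.05, all lower in the mutant and none called. They were the laminin chains Lamb1 (−0.14, adjusted p = 0.26) and Lamc1 (−0.11, adjusted p = 0.329), the RGD-binding chain Itga8 (−0.15, adjusted p = 0.532) and Col5a2, a chain of the fibril-forming type V collagen (−0.11). Across all genes 8.86% had an unadjusted p under 0.05. Cell-type markers were also compared between genotypes over both states. Of 16 choroid plexus markers, 16 had a difference above 0 (median 0.16), with 0 called by limma and 4 at an unadjusted p under 0.05. Markers of a tissue can vary together, so these are not 16 separate results. Their mean was 6.41 to 6.67 in WT basal arrays 1 to 3, within the mutant basal range of 6.27 to 6.69. In WT basal arrays 4 to 6 it was 5.81 to 6.03. Of the 11 markers of hippocampal neurons, Prox1, a transcription factor of granule cells, was called lower in the mutant (−0.20, adjusted p = 0.0355). With the choroid plexus mean as a covariate, Itga4 (0.32, adjusted p = 0.00587) and Itgbl1 (0.24, adjusted p = 0.0408) were still called over both states. The part of granule cells was not tested. The median difference of the 78 genes was 0.0125, and that of all genes was 0.00645.

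**Figure D2:**
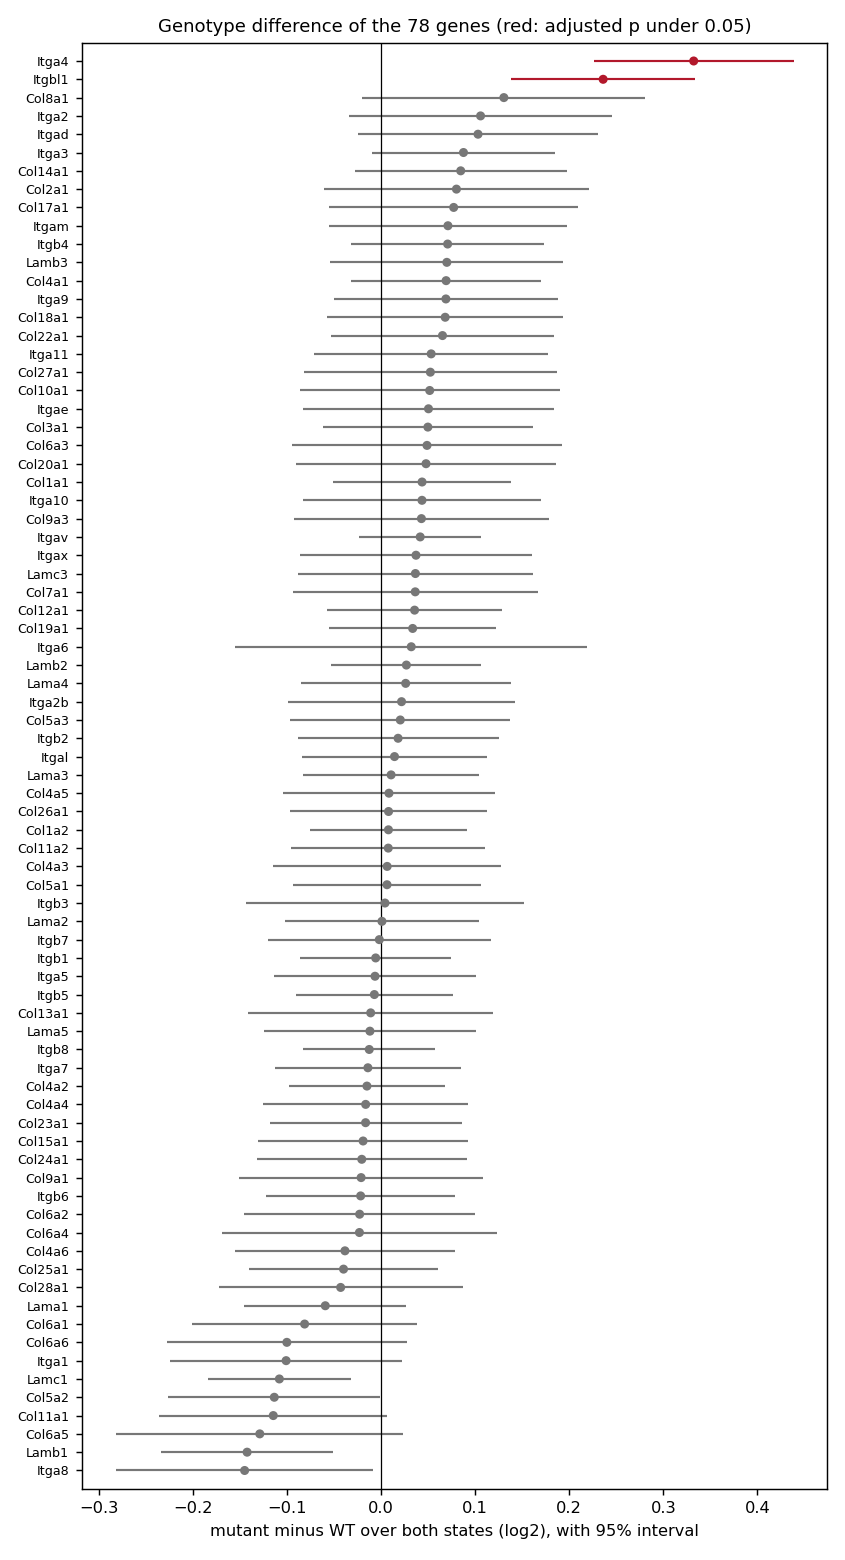
Difference between mutant and WT arrays, averaged over both states, for each of the 78 genes (log2, horizontal axis) with its 95% interval, ordered by size, with called genes in red. Itga4 (0.33) and Itgbl1 (0.24) are called, and the other differences lie between −0.15 and 0.13.

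The partners of alpha4 were not called between genotypes. Itgb1, the beta1 chain shared by many integrins, had 9.16, 9.24 and 9.41 in mutant basal arrays, against 9.05, 9.23 and 9.35 in WT basal arrays. Its difference was 0.05 (95% interval −0.06 to 0.17, adjusted p = 1.00) in the basal state and −0.07 (−0.18 to 0.05, adjusted p = 0.823) after learning. Itgb7, the beta7 chain of leukocytes, differed by −0.02 (−0.18 to 0.15) and 0.01 (−0.15 to 0.18), at means of 5.79 to 5.84, below the median of all values. Itga9, the chain closest to alpha4 in its ligands, differed by 0.12 (−0.05 to 0.29) in the basal state and 0.02 (−0.15 to 0.19) after learning.

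Ligands of alpha4 integrins were not called between genotypes either. Fn1, which encodes fibronectin, had 8.13, 8.32 and 8.44 in mutant basal arrays, against 7.76, 8.01 and 8.15 in WT basal arrays. The ranges overlapped only near 8.13 to 8.15. The difference was 0.29 (SE 0.0712, 95% interval 0.15 to 0.44, adjusted p = 0.147) in the basal state, 0.07 (−0.07 to 0.22, adjusted p = 0.851) after learning and 0.18 over both states (adjusted p = 0.141). Vcam1, an adhesion molecule of vessels and astrocytes, differed by 0.15 (0.01 to 0.28, adjusted p = 1.00) in the basal state and 0.09 (−0.05 to 0.22, adjusted p = 0.805) after learning. For Madcam1, an adhesion molecule of gut vessels, the 95% intervals ran from −0.36 to 0.21 and from −0.25 to 0.32. Of 20 integrin ligands other than collagens and laminins, and of 27 genes of the adhesion complex inside the cell, 0 were called between genotypes in either state or over both. Of all genes, 0.100% were called in the basal state, 0.0752% after learning and 0.391% over both. At an unadjusted p under 0.05 there were 3 ligands and 3 adhesion genes in the basal state, 2 and 1 after learning and 6 and 4 over both. The shares of all genes at that p were 4.50%, 7.33% and 8.86%. Of 17 other basement membrane genes, Fbln1, which encodes fibulin 1, was called lower in the mutant over both states (−0.19, adjusted p = 0.0296).

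Over the 24 arrays, after the group means were subtracted, the genes outside the list whose values were most like those of Itga4 were Rcbtb1 (r = 0.782), Map3k4 (0.771), Topbp1 (0.761), Smad4 (0.754) and Polr2h (0.737). For Itgbl1 they were Cnot1 (r = 0.706), Crebbp (0.685), Exoc3l4 (0.676), Mir491 (0.675) and Atp2b1 (0.674). These correlations describe the 24 arrays, which share their normalization, and were the highest of all genes outside the list, so no test is attached to them.

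After learning, calls among collagen and laminin genes were all lower than in the basal state, in 10 of 41 collagens and 3 of 10 laminins in the mutant and in 16 of 41 and 3 of 10 in WT. Most genes of these classes were not called. Integrin chains were called lower in 7 of 27 cases in the mutant, and higher in 6 and lower in 6 in WT. In the mutant, 0 genes of 78 were called higher and 20 lower (25.6% of them), where of all genes 22.6% were higher and 18.7% lower (41.3% in either direction). In WT, 6 were called higher (7.69%) and 25 lower (32.1%), where of all genes 25.1% were higher and 18.2% lower (43.3% in either direction). At an unadjusted p under 0.05 there were 26 of the 78 in the mutant and 36 in WT, where 47.7% and 49.7% of all genes reached it. In each genotype 63 of the 78 differences were below 0. The median difference was −0.13 in the mutant and −0.14 in WT, against 0.0307 and 0.0302 for all genes. In bulk tissue, fewer cells of a type and less RNA per cell cannot be told apart. Arrays of the 2 states did not overlap for 5 genes in the mutant, all lower, and for 18 in WT, 17 of them lower, where 22.7% of all genes did not overlap in the mutant and 25.2% in WT. Without WT basal arrays 4 to 6, the WT calls were 5 higher and 14 lower. The share of all genes called in WT fell there too, from 43.3% to 36.7%, with fewer arrays in the fit. The 12 WT calls that ended there were those of Itga4, Itga6, Col1a2, Col5a1, Col5a2, Col6a6, Col9a3, Col14a1, Col23a1, Col25a1, Lamb3 and Lamc1 (adjusted p from 0.0560 for Col1a2 to 0.368 for Col6a6). Leaving out 1 array ended the WT calls of Col25a1 in 8 of 12 fits, Col6a6 in 6, Col14a1 in 5, Col1a2 in 4, Col23a1 and Lamc1 in 3 each, and Lamb3 and Col5a2 in 1 each.

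**Figure D3:**
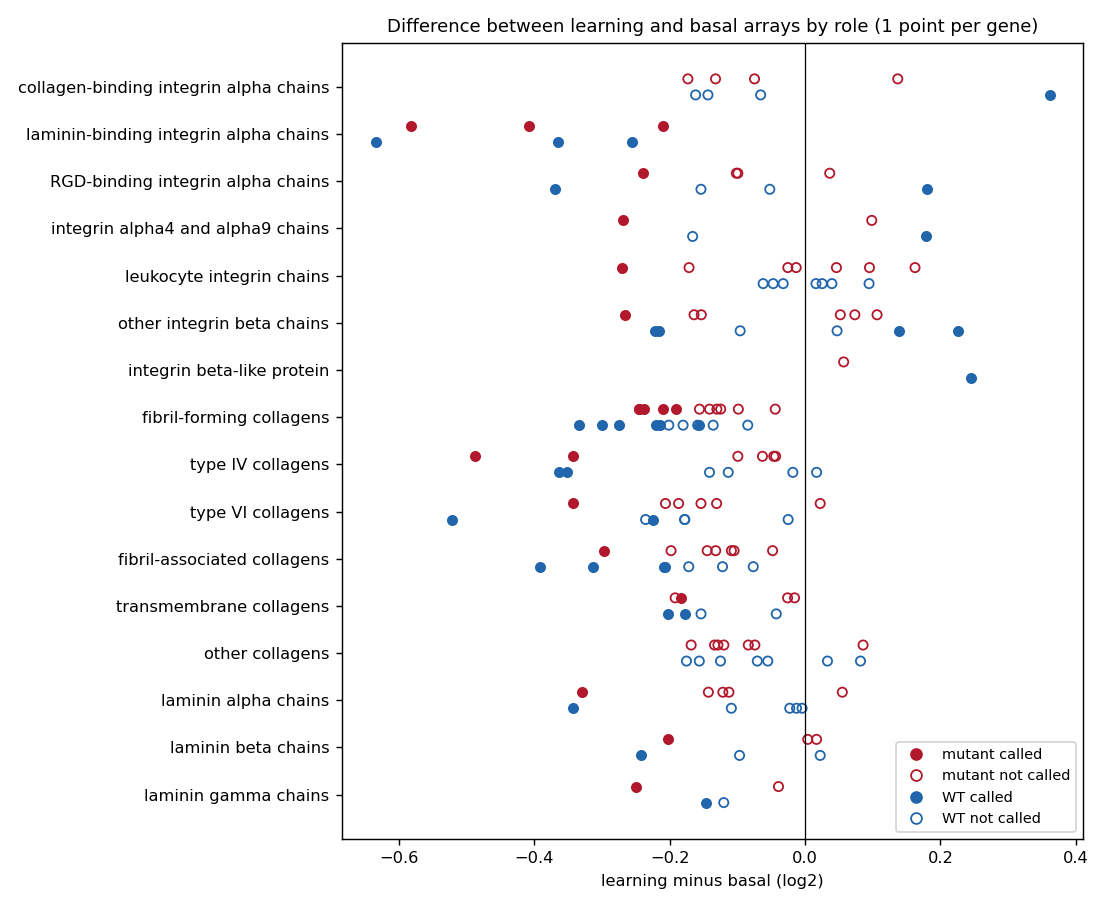
Difference between learning and basal arrays (log2, horizontal axis) for each of the 78 genes (1 point each), grouped by role, with mutant points above WT points and called genes filled. All 3 laminin-binding integrin chains lie between −0.63 and −0.21 and are called in both genotypes, and all called collagens and laminins lie below 0.

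Laminin-binding integrin alpha chains fell in 3 of 3 cases in each genotype. Among all genes, 18.7% were called lower in the mutant and 18.2% in WT. Itga7, the alpha7 chain known from muscle and vessel walls, had 6.77, 7.02 and 7.09 in mutant learning arrays, against 7.31, 7.60 and 7.66 in mutant basal arrays. In WT it had 6.82, 6.94 and 7.07 after learning, against 7.49, 7.57 and 7.67 in the basal state. The states did not overlap in either genotype, and Itga7 had the largest fall of the 78 genes in both. The difference was −0.58 in the mutant (SE 0.0684, 0.668-fold, adjusted p = 3.74e-08) and −0.63 in WT (SE 0.0684, 0.644-fold, adjusted p = 7.56e-09). Itga6, the alpha6 chain of basement membrane receptors, had 6.86, 7.71 and 7.91 in mutant learning arrays, against 7.82, 8.00 and 8.23 in mutant basal arrays, and its states overlapped. It fell by 0.41 in the mutant (adjusted p = 0.0116) and by 0.37 in WT (adjusted p = 0.0224), and the WT call was lost in 4 of 12 fits without 1 array (adjusted p up to 0.0689) and without WT basal arrays 4 to 6 (adjusted p = 0.22). Itga3, the alpha3 chain, fell by 0.21 in the mutant (adjusted p = 0.0118) and by 0.26 in WT (adjusted p = 0.00237).

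Among collagen-binding chains, 0 of 4 were called in the mutant and 1 in WT, where 41.3% and 43.3% of all genes were called. The WT call was that of Itga1, the alpha1 chain that prefers type IV collagen. It had 6.76, 6.98 and 7.17 in mutant learning arrays, against 6.66, 6.84 and 6.93 in mutant basal arrays, and 6.98, 7.18 and 7.42 in WT learning arrays, against 6.52, 6.87 and 7.06 in WT basal arrays. The states overlapped in each genotype, in WT between 6.98 and 7.06. The difference was 0.14 in the mutant (95% interval −0.04 to 0.31, adjusted p = 0.21) and 0.36 in WT (0.19 to 0.54, 1.28-fold, adjusted p = 0.00086).

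The 4 chains that bind the RGD tripeptide of fibronectin and vitronectin were mixed. Limma called 1 of them in the mutant, lower, and 2 in WT, 1 higher and 1 lower. Among all genes, 41.3% were called in the mutant and 43.3% in WT. Itga5, the alpha5 chain of the fibronectin receptor, fell by 0.24 in the mutant (adjusted p = 0.0101) and by 0.37 in WT (adjusted p = 0.000145). Itgav, the alpha chain of vitronectin receptors, had 9.16, 9.22 and 9.31 in mutant learning arrays, against 9.14, 9.19 and 9.28 in mutant basal arrays, and 9.11, 9.26 and 9.41 in WT learning arrays, against 9.03, 9.07 and 9.18 in WT basal arrays. In the mutant the states had nearly the same range, and in WT they overlapped between 9.11 and 9.18. Itgav differed by 0.04 in the mutant and rose by 0.18 in WT (SE 0.0446, adjusted p = 0.00145). The alpha4 and alpha9 chains were counted as a separate group. Itga4 differed by 0.10 in the mutant (adjusted p = 0.304) and rose by 0.18 in WT (adjusted p = 0.0489). Its WT call was lost in 8 of 12 fits without 1 array (adjusted p up to 0.161) and without WT basal arrays 4 to 6 (adjusted p = 0.142). Itga9 fell by 0.27 in the mutant (adjusted p = 0.00916) and differed by −0.17 in WT (adjusted p = 0.107).

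Of the beta chains outside leukocytes, 1 of 6 was called in the mutant and 4 in WT, beside 41.3% and 43.3% of all genes. Itgb5, a partner of alphav, had 8.21, 8.46 and 8.67 in mutant learning arrays, against 8.66, 8.70 and 8.75 in mutant basal arrays, with an overlap from 8.66 to 8.67. It had 8.38, 8.43 and 8.60 in WT learning arrays, against 8.61, 8.69 and 8.76 in WT basal arrays, which did not overlap. It fell by 0.27 in the mutant (adjusted p = 0.000333) and by 0.22 in WT (adjusted p = 0.00213). Itgb1 had 9.20, 9.43 and 9.48 in mutant learning arrays and 9.35, 9.42 and 9.54 in WT learning arrays. All WT learning arrays lay above all WT basal arrays (9.05 to 9.35), though the nearest arrays differ only beyond the second decimal, and no other of the 78 genes had all its WT learning arrays above. The difference was 0.11 in the mutant (95% interval −0.0066 to 0.22, adjusted p = 0.128) and 0.23 in WT (0.11 to 0.34, adjusted p = 0.00126). Itgb8, a chain with which glia activate TGF-beta, differed by 0.07 in the mutant and rose by 0.14 in WT (adjusted p = 0.0207, lost in 2 of 12 fits without 1 array, up to 0.0683), while Itgb4, the partner of alpha6 in epithelial anchoring, was called lower in WT (−0.22, adjusted p = 0.014). Itgbl1 differed by 0.06 in the mutant and rose by 0.25 in WT (adjusted p = 0.00369).

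Leukocyte integrin chains were called in 1 of 7 cases in the mutant and 0 of 7 in WT. Itgam, the alphaM chain of microglia and other myeloid cells, had 6.80, 7.07 and 7.27 in mutant learning arrays, against 7.09, 7.28 and 7.54 in mutant basal arrays, and the states overlapped. It fell by 0.27 in the mutant (adjusted p = 0.0134). Of 11 microglia markers, 3 rose and 2 fell in the mutant, and 4 rose and 1 fell in WT. Of all genes, 41.3% were called in the mutant and 43.3% in WT. C1qa and P2ry12 were among the higher ones in both genotypes and Csf1r, the receptor for colony stimulating factor 1, was lower in both (−0.36 in the mutant and −0.24 in WT).

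Type IV collagen, the network of basement membranes, was called for Col4a1 and Col4a2 in both genotypes and for 0 of the other 4 chains. By comparison, 18.7% of all genes were called lower in the mutant and 18.2% in WT. Col4a1 and Col4a2 encode the chains of the common type IV molecule of vessels. Col4a1 had 6.84, 7.04 and 7.14 in mutant learning arrays, against 7.20, 7.35 and 7.59 in mutant basal arrays, and 6.81, 6.92 and 7.07 in WT learning arrays, against 7.17, 7.30 and 7.48 in WT basal arrays. Col4a2 had 6.98, 7.12 and 7.20 in mutant learning arrays, against 7.43, 7.59 and 7.77 in mutant basal arrays, and 7.10, 7.19 and 7.26 in WT learning arrays, against 7.45, 7.52 and 7.67 in WT basal arrays. Neither gene's states overlapped in either genotype. Col4a1 fell by 0.34 in the mutant (SE 0.0696, 0.789-fold, adjusted p = 0.000168) and by 0.36 in WT (adjusted p = 7.74e-05). Col4a2 fell by 0.49 in the mutant (SE 0.0576, 0.713-fold, adjusted p = 3.9e-08) and by 0.35 in WT (adjusted p = 8.59e-06). The other 4 chains differed by −0.10 to −0.04 in the mutant and by −0.14 to 0.02 in WT.

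Col4a1 and Col4a2 lie head to head on chromosome 8, and the start sites of their promoter windows are 21 bases apart on opposite strands. That of Col4a1, at 11312826, lies inside the annotated gene, which RefSeq ends at 11312889. Their promoter windows share 78 bases. The stretch CCCTCCCC, read on both strands, stands in that overlap. It was found in 16 of the 62 windows of the list (25.8%), in 15 genes, and in 10.8% of all windows. The 30 bases around it, chr8:11312781-11312810, on the + strand, are given because both genes were called lower in both genotypes. The part of this stretch in their falls was not tested.
Col4a1 and Col4a2: ttggcgctgccCCCTCCCCtcggcagtgcg

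Fibril-forming collagens were below 0 in 11 of 11 cases in each genotype, and 5 were called in the mutant and 6 in WT. The shares of all genes called were 41.3% in the mutant and 43.3% in WT, and 18.7% and 18.2% were called lower. Col1a1 and Col1a2, the chains of type I collagen of meninges and vessel walls, fell by 0.24 and 0.21 in the mutant (adjusted p = 0.00303 and 0.00373) and by 0.33 and 0.16 in WT (adjusted p = 0.000107 and 0.0281). Col1a1 had 7.23, 7.34 and 7.70 in mutant learning arrays, against 7.54, 7.61 and 7.75 in mutant basal arrays. In WT it had 7.19, 7.26 and 7.47 after learning, against 7.57, 7.62 and 7.71 in the basal state, with no overlap. Col3a1, type III collagen, fell by 0.19 in the mutant (adjusted p = 0.047, lost in 8 of 12 fits without 1 array, up to 0.118) and by 0.28 in WT (adjusted p = 0.00423). Col11a2, a chain of type XI collagen, fell by 0.25 in the mutant (adjusted p = 0.006) and by 0.30 in WT (adjusted p = 0.000932). Col11a1 was called lower in the mutant (−0.24, adjusted p = 0.0227, lost in 3 of 12 fits without 1 array, up to 0.0809) and differed by −0.18 in WT (adjusted p = 0.0831), and Col5a1 and Col5a2 were called lower in WT (−0.21 and −0.22).

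Of 6 type VI collagen chains, 1 was called in the mutant and 2 in WT, all lower. For each collagen group here, the share of all genes called lower was 18.7% in the mutant and 18.2% in WT. Col6a1 had 6.98, 7.12 and 7.45 in mutant learning arrays, against 7.37, 7.50 and 7.74 in mutant basal arrays, and 6.93, 7.19 and 7.32 in WT learning arrays, against 7.64, 7.70 and 7.77 in WT basal arrays. The states overlapped in the mutant and lay apart in WT. Col6a1 fell by 0.34 in the mutant (adjusted p = 0.00108) and by 0.52 in WT (SE 0.0824, 0.696-fold, adjusted p = 5.04e-06), the largest fall of a collagen in WT. Of 7 fibril-associated collagens, which decorate fibrils, 1 was called in the mutant and 4 in WT. Col9a3, a chain of type IX collagen, fell by 0.30 in the mutant (adjusted p = 0.0115) and by 0.31 in WT (adjusted p = 0.00749, and 0.0716 without WT basal arrays 4 to 6). Col20a1 differed by −0.20 in the mutant (adjusted p = 0.101) and fell by 0.39 in WT (adjusted p = 0.00123). Of 4 transmembrane collagens, Col25a1, which was found in amyloid plaques in humans, was called lower in both genotypes (−0.18 in each, the mutant call lost in 6 of 12 fits without 1 array, up to 0.0927), and Col23a1 in WT (−0.20). Of 7 other collagens, among them the basement membrane collagens Col15a1 and Col18a1, 0 were called by limma in either genotype, with differences of −0.17 to 0.09 in the mutant and −0.18 to 0.08 in WT.

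**Figure D4:**
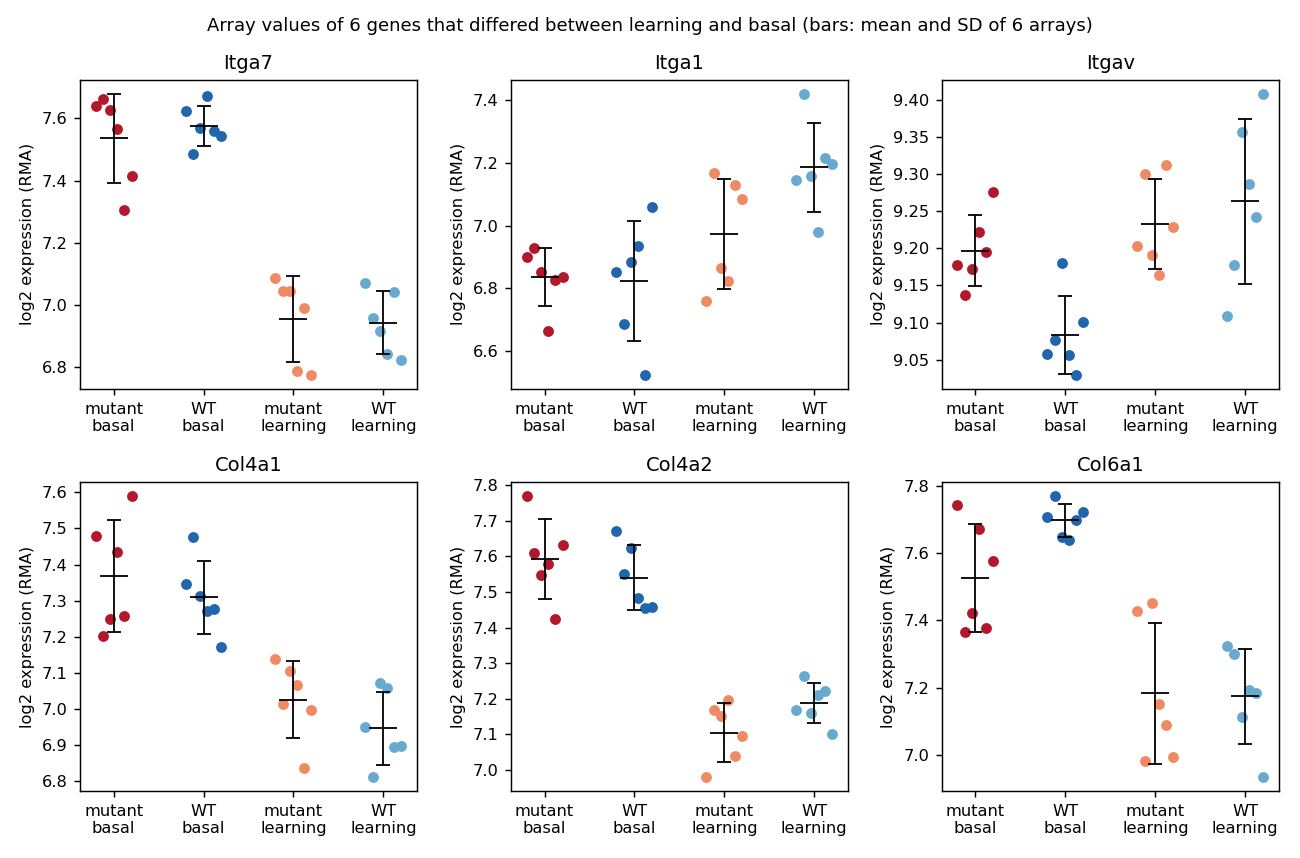
Deposited log2 values of Itga7, Itga1, Itgav, Col4a1, Col4a2 and Col6a1 in each of the 24 arrays (points), by group, with the mean and SD of 6 arrays. Learning arrays lie below basal arrays without overlap for Itga7, Col4a1 and Col4a2 in both genotypes, and Itga1 and Itgav are called higher in WT.

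Laminin genes were called lower in 3 of 10 cases in each genotype, and 0 were called higher. By comparison, 18.7% of all genes were called lower in the mutant and 18.2% in WT, and 41.3% and 43.3% in either direction. Lama5, the alpha5 chain of adult vessel basement membranes, had 5.94, 6.19 and 6.44 in mutant learning arrays, against 6.43, 6.53 and 6.62 in mutant basal arrays. It had 5.98, 6.22 and 6.35 in WT learning arrays, against 6.46, 6.54 and 6.70 in WT basal arrays. The states lay apart in WT and overlapped between 6.43 and 6.44 in the mutant. Lama5 fell by 0.33 in the mutant (adjusted p = 0.000918) and by 0.34 in WT (adjusted p = 0.000603). In the mutant, Lamb2, the beta2 chain of mature vessels, fell by 0.20 (adjusted p = 0.00348) with no overlap, and Lamc3, the gamma3 chain, by 0.25 (adjusted p = 0.0205, lost in 4 of 12 fits without 1 array, up to 0.0655). In WT, Lamb3, the beta3 chain, was called lower (−0.24, adjusted p = 0.0222) and in the mutant it differed by 0.02. Lamc1, the gamma1 chain found in most laminins, was called lower in WT too (−0.15, adjusted p = 0.0242).

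Whether the learning difference itself differed between genotypes was tested as an interaction, coded as the difference of mutant from WT after learning less the same difference in the basal state. For 0 of the 78 genes, and for 0 of all genes, it was called by limma (0%). At an unadjusted p under 0.05 there were 2 of the 78, Itgav (−0.14, 95% interval −0.27 to −0.01) and Lamb3 (0.26, 0.01 to 0.51), and 510 of all genes (2.56%). For Itgbl1 it was −0.19 (−0.38 to 0.0070), for Itga1 −0.22 (−0.47 to 0.02) and for Itgb1 −0.12 (−0.28 to 0.04). The 6 integrin genes called higher in WT were therefore not shown to respond differently in the mutant. Of the 78 genes, 15 were called in both genotypes, all in the same direction, which is 75% of the 20 called in the mutant and 48.4% of the 31 called in WT. Over all genes, 6913 were called in both, which is 84.0% of those called in the mutant and 80.0% of those called in WT. The 2 genotypes share no arrays. The sign of the difference was the same for 72 of the 78 genes and for 16854 of all 19938 genes.

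Genes that work with integrins, collagens and laminins were counted in the same way, beside the 41.3% of all genes called in the mutant and the 43.3% called in WT. Of 27 genes of the integrin adhesion complex, 4 rose and 16 fell in the mutant, and 3 rose and 16 fell in WT, which is 74.1% called in the mutant and 70.4% in WT. Rsu1, Itgb1bp1 and Lims1 were higher (0.58, 0.41 and 0.31 in the mutant and 0.56, 0.42 and 0.38 in WT), while Ilk, the integrin-linked kinase that Lims1 binds, was lower (−0.62 in the mutant and −0.55 in WT). Ptk2b, a focal adhesion kinase of neurons, was lower as well (−0.39 in the mutant and −0.42 in WT). Of the 20 other integrin ligands, 3 rose and 6 fell in the mutant, and 4 rose and 4 fell in WT (45.0% called in the mutant and 40.0% in WT, near the share of all genes). The higher ones included the early response genes Ccn1 (0.57 in the mutant and 0.50 in WT) and Ccn2 (0.59 in the mutant and 0.64 in WT), and the lower ones Tgfb1 (−0.56 in the mutant and −0.44 in WT). Fn1 was called lower in the mutant (−0.24, adjusted p = 0.00661) and differed by −0.02 in WT (adjusted p = 0.831).

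Of 17 other basement membrane genes, 0 rose and 5 fell in the mutant, and 1 rose and 3 fell in WT (29.4% called in the mutant and 23.5% in WT, below the share of all genes). Agrn, which encodes agrin, was lower by −0.86 in the mutant and −0.68 in WT, and Hspg2, which encodes perlecan, by −0.30 in the mutant and −0.35 in WT. Of 24 genes of collagen synthesis and crosslinking, 2 rose and 10 fell in the mutant, and 1 rose and 7 fell in WT (50% called in the mutant and 33.3% in WT). P4ha1, a prolyl hydroxylase, was higher (0.64 in the mutant and 0.59 in WT), and Loxl1, a lysyl oxidase, lower (−0.44 in the mutant and −0.61 in WT). Of 21 matrix proteases and their inhibitors, 4 rose and 6 fell in the mutant, and 4 rose and 7 fell in WT (47.6% called in the mutant and 52.4% in WT), among them Mmp14, a membrane-bound collagenase (−0.71 in the mutant and −0.65 in WT). Of 18 genes of the perineuronal and neural matrix, 3 rose and 6 fell in the mutant, and 6 rose and 6 fell in WT (50% called in the mutant and 66.7% in WT). Hapln1, a link protein, was higher in both (0.22 in the mutant and 0.34 in WT), while the proteoglycans Ncan and Bcan were lower in both (−0.49 and −0.52 in the mutant, and −0.51 and −0.47 in WT).

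Markers of cells that make collagens and basement membranes, and of other cells, were counted in the same way. Of all genes, 41.3% were called in the mutant and 43.3% in WT. In WT the called share of endothelial markers, and in both genotypes that of choroid plexus markers, was below that of all genes. Of 10 mural cell markers, 1 rose and 5 fell in the mutant, and 2 rose and 5 fell in WT. Their mean was 7.32 to 7.43 in mutant learning arrays, against 7.51 to 7.65 in mutant basal arrays, and 7.33 to 7.45 in WT learning arrays, against 7.41 to 7.57 in WT basal arrays. Pdgfrb was lower (−0.53 in the mutant and −0.46 in WT) and Rgs5 higher (0.42 in the mutant and 0.32 in WT). Of 11 endothelial markers, 1 rose and 5 fell in the mutant, and 1 rose and 3 fell in WT, with a mean of 7.47 to 7.74 in mutant learning arrays, against 7.77 to 7.95 in mutant basal arrays, and 7.60 to 7.81 in WT learning arrays, against 7.70 to 7.83 in WT basal arrays. Cldn5, a tight junction protein, was lower (−0.65 in the mutant and −0.46 in WT). Of 10 markers of meningeal and perivascular fibroblasts, 2 rose and 6 fell in the mutant, and 3 rose and 3 fell in WT. Lum and Dcn were higher in both genotypes, and Igf2 and Igfbp2 lower in both. Of 16 choroid plexus markers, 0 rose and 5 fell in the mutant, and 0 rose and 1 fell in WT. Their mean was 5.89 to 6.63 in mutant learning arrays, against 6.27 to 6.69 in mutant basal arrays, and 5.94 to 6.11 in WT learning arrays, against 5.81 to 6.67 in WT basal arrays. Ttr was lower in the mutant (−1.39, adjusted p = 0.0176) and differed by −0.93 in WT (adjusted p = 0.114). Markers of hippocampal neurons moved too, with 1 of 11 higher and 8 lower in the mutant and 2 higher and 8 lower in WT. Their called share was above that of all genes in both genotypes. In the mutant their mean was 9.54 to 9.615 in learning arrays, against 9.74 to 9.84 in basal arrays. In WT it was 9.48 to 9.68, against 9.71 to 9.84, so the states did not overlap in either genotype. With the choroid plexus mean as a covariate, 15 of the 78 genes were called in the mutant and 26 in WT. The shares of all genes called in that fit were lower too, at 37.1% in the mutant and 40.5% in WT. Among the mutant calls that ended there were those of Col11a1, Col25a1, Col3a1, Itga3 and Lamc3. The part of the other cell types in the falls of collagen, laminin and integrin genes was not tested.

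**Figure D5:**
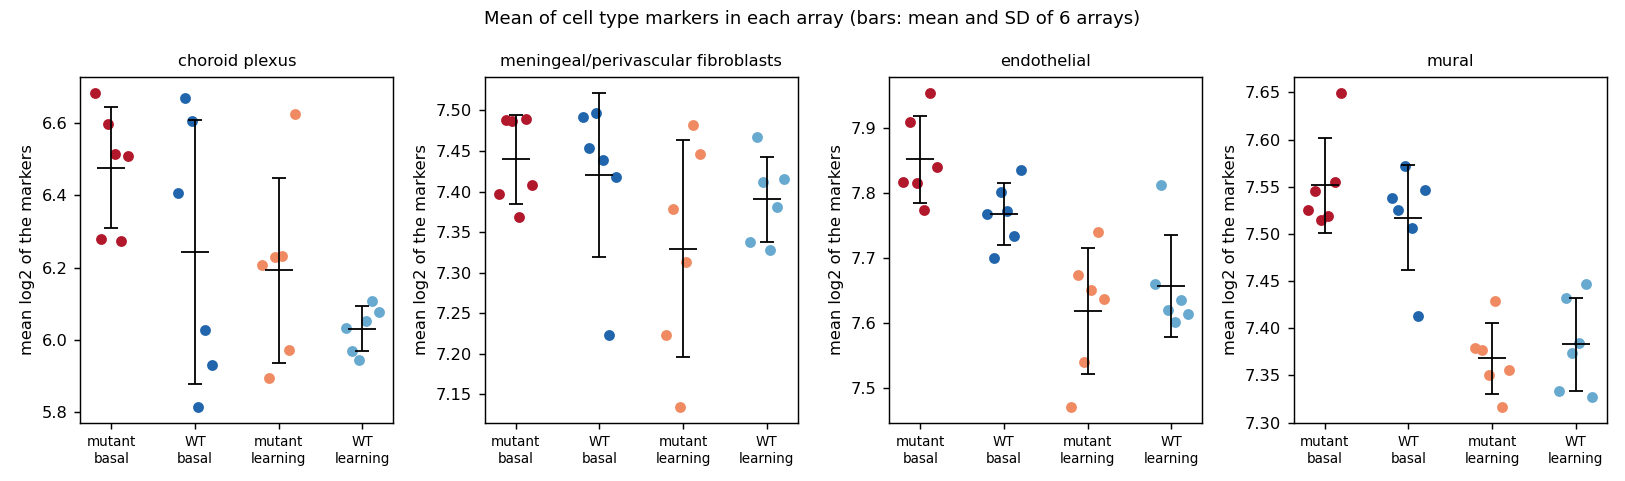
Mean log2 value of the markers of choroid plexus (16 genes), meningeal and perivascular fibroblasts (10), endothelial cells (11) and mural cells (10) in each array (points), by group, with the mean and SD of 6 arrays. Mural means are lower in learning arrays (7.32 to 7.45) than in nearly all basal arrays (7.41 to 7.65), and WT basal arrays split in their choroid plexus mean (5.81 to 6.67).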

How the data were processed

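The deposited table holds log2 values for 35511 probes, made by the authors with RMA, per the submitters' processing notes. No source used here gives its version or the probe grouping. Of the probes, 21789 carry 1 gene symbol in GEO's platform annotation, which can be old, and for a gene with several the probe with the highest mean was kept, which left 19938 genes. No dim gene was left out. R 4.3.3 and limma 3.58.1 fitted 1 mean per group over 24 arrays (20 residual degrees of freedom) with eBayes and a mean-variance trend. Two-sided p-values were adjusted over all genes, separately in each of 6 comparisons. Standard errors and 95% intervals use limma's moderated spread. Precision is limited by the number of arrays. The method was tested on simulated data.

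The genes described, the other lists and the tests were chosen with earlier results of these data known. Always named were Itga4, Itgbl1, Itgb1, Itgb7, Foxo6 and Ttr, then every called gene of the list (where over 24 were called, the 12 largest differences in each direction), and up to 3 called genes per direction from each other list. Vcam1, Fn1, Madcam1, Itga8, Itgb4, Col5a1, Col5a2, Col6a6, Col14a1, Col15a1, Col18a1, Col23a1 and Lamc1, and the genotype values of Itga9, were added after their values were seen. Alternatives were other normalizations, a filter on dim genes, every probe, other variance models, array weights, a replicate block, choroid plexus markers as a covariate and leaving out arrays. Same-numbered arrays of different groups mostly did not deviate together: their correlations were −0.30 to 0.45, with 7 of 36 over 0.1. The highest were those of arrays numbered 2. They were 0.45 between mutant basal and WT learning, 0.26 between mutant learning and WT learning, and 0.26 between mutant basal and mutant learning. Sequences are from RefSeq, GRCm38.p6.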

Additional observations from a re-analysis of the deposited data

Results flagged for a closer look

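In groups of 6 arrays, the highest and lowest array of 30 named genes were set against Dixon's 95% critical value for the gap to the next array over the whole range. Of 120 groups, 7 passed it (5.83%), where chance passes about 1 in 20. Itga6 was 6.86 in mutant learning array 1, with the next array at 7.55. Col11a1 was 6.42 in WT basal array 4, with the next at 6.77. Itgam was 6.79 in WT learning array 1, with the next at 7.08, and Lamc3 was 6.31 in WT learning array 2, with the next at 6.55. Lamb2 was 8.38 in mutant basal array 6, with the next below it at 8.15, and 7.95 in WT basal array 4, with the next above it at 8.06. Itgb7 was 5.97 in mutant basal array 6, with the next below it at 5.81.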

How the results depend on the processing

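The count of the 78 genes called between genotypes was 2 over both states and 0 after learning under every alternative run, and the interaction count was 0 throughout. In the basal state the count of 2 became 1 with arrays centred on their medians (Itgbl1), with only the compared groups in the fit (Itga4) and with a replicate block (Itga4), and 0 without a mean-variance trend, with the choroid plexus mean as a covariate or without WT basal arrays 4 to 6. Leaving out 1 array gave 0 to 2. Learning against basal gave 15 to 23 in the mutant (20 with a replicate block; 16 to 27 without 1 array, lowest without mutant basal array 4 and highest without mutant learning array 1). In WT it gave 26 to 32 (31 with a replicate block) but 19, 5 higher and 14 lower, without WT basal arrays 4 to 6, and 22 to 33 without 1 array. Without WT basal arrays 4 to 6 the share of all genes called in WT was 36.7%, against 43.3% in the main fit. The replicate numbers did not pair the arrays throughout, and the block changed no other of these counts. No called gene changed sign. Of the named values near 0 that were not called, 3 did: over all settings Itgb7 ran from −0.04 to 0.07 after learning and from −0.03 to 0.03 over both states, and Itgb1 from −0.02 to 0.03 over both states. With 6 arrays a group, differences near 0.1 in dim genes could not be told from 0.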

Other observations

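For 3 genes of the list a second probe with 1 symbol was on the array. In the mutant after learning, against the mutant basal state, the second probe of Col6a5 differed by 0.23 (adjusted p = 0.0738) and that of Col6a6 by −0.16 (adjusted p = 0.0762). In WT they differed by 0.17 (adjusted p = 0.183) and −0.07 (adjusted p = 0.458), and the second probe of Itgad differed by −0.03 in the mutant and 0.03 in WT. None of the 3 was called in any of the 6 comparisons. That fit held all probes with 1 symbol and also probes annotated to both Rpl35 and Itgam. The shared probes were higher after learning, by 0.76 to 0.78 in the mutant and by 0.62 to 0.67 in WT, all called by limma. The Itgam probe of the list was called lower in the mutant. Which of Rpl35 and Itgam gave the signal of the shared probes was not tested. All 78 genes matched a RefSeq entry, on 20 chromosomes, and Col27a1 and Col15a1 shared chromosome 4 with Foxo6, 56.9 and 73 Mb from it.

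Myelin and neuronal markers, which the list does not hold, also split in direction after learning. Of 9 oligodendrocyte markers, 4 rose and 2 fell in the mutant, and 3 rose and 2 fell in WT. Of all genes, 41.3% were called in the mutant and 43.3% in WT. Ermn and Mobp were higher (0.66 and 0.42 in the mutant, 0.53 and 0.41 in WT) and Mag, a myelin adhesion protein, was lower (−0.42 in the mutant and −0.40 in WT). Slc17a7, the vesicular glutamate transporter, was lower by −0.66 in the mutant and −0.58 in WT, while Neurod1, a transcription factor of granule cells, was higher by 0.49 in each.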
